A study of Parhyale hawaiensis with 10 samples.

Results

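The layout of accessible chromatin along the genome was compared between embryonic and adult legs of the amphipod crustacean Parhyale hawaiensis. ATAC-seq uses the Tn5 transposase to cut DNA that is not covered by nucleosomes, and a peak is an interval with more cuts than its surroundings. Of the 10 libraries of the series, the 6 leg libraries were used, 3 of embryonic and 3 of adult legs, together with 1 library of naked DNA as the background of the assay. Embryonic leg libraries were made from developing T4 to T8 legs pooled over embryos at stages 25 to 26. Adult leg libraries were made from uninjured T4 and T5 legs. All animals were of the inbred Chicago-F line. Age and leg identity therefore differ together between the leg types and cannot be told apart. Naked DNA came from a whole adult. No treatment, transgene or mutation is named for any of these groups. Whether the replicates are different animals is not stated in the labels. The p-values below therefore reflect sample-to-sample spread alone, and this spread may be technical. The peaks carry no gene names, so no gene and no cell type marker could be checked.

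Active enhancers and promoters are nucleosome-depleted, and in animals the enhancers of a developmental gene often lie in groups around it, at distances that can reach far beyond the gene. The spacing of peaks, their number per stretch of genome and their number of summits therefore describe how accessible elements are arranged. A peak can hold several summits, each a local maximum of cutting. Several list entries with the same interval were counted as 1 peak with several summits. Embryonic legs 1 to 3 had 87308, 77357 and 119487 peaks, and adult legs 1 to 3 had 76268, 49502 and 48324. Naked DNA had 161533. Background pileup, which serves as a measure of relative depth, was 0.457, 0.394 and 0.526 in embryonic legs and 0.482, 0.451 and 0.252 in adult legs. Adult leg 3 was thus the shallowest library. Scaffold length was taken as the highest peak end in any list. Of 28600 scaffolds with a peak, 158 reached at least 1 Mb and held 2.46 of 2.58 Gb.

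The 3 adult libraries did not share 1 layout, and this touches nearly every result below. Over 24520 windows of 100 kb, the number of peaks correlated between embryonic libraries with r of 0.888 to 0.901 over 3 pairs. Among adult libraries r was 0.728 to 0.753, and between leg types it was 0.632 to 0.821 over 9 pairs. In windows of 1 Mb the ranges were 0.962 to 0.966, 0.841 to 0.88 and 0.772 to 0.901. These correlations are across windows, which share the genome's base composition and mappability and are not independent replicates. On several measures adult leg 1 lay with the embryonic legs, and adult legs 2 and 3 lay apart from the other 4 libraries. The entries of the adult leg 2 list are named without a replicate number, unlike those of the other leg lists, and whether that list holds this library alone was not tested. Results are therefore also given with the same number of peaks from each library, with the strongest 10000 peaks of each, and without single libraries.

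Embryonic leg peaks lay closer together on average, but the leg types overlapped. The median distance from a peak to the next on its scaffold was 11890, 11861 and 9652 bp in embryonic legs 1 to 3. In adult legs 1 to 3 it was 11595, 25384 and 26254 bp. Adult leg 1 fell inside the embryonic range, and adult legs 2 and 3 had gaps of more than 25 kb. The group means were 11134 ± 1284 bp and 21077 ± 8224 bp (SD, n = 3 each), a ratio of 0.528. Measures per library were compared by exact permutation of the library labels, two-sided throughout. For the median gap this gave an exact p of 0.3 (n = 3 each), and 3 libraries against 3 cannot give less than 0.1. With Benjamini-Hochberg adjustment over the 16 measures compared per library, no exact permutation p was below 0.533.

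The longest stretch without a peak reached 1239, 1750 and 1013 kb in embryonic legs and 2048, 1882 and 1867 kb in adult legs. All 3 adult libraries thus had a longer one than any embryonic library. This is a single extreme value per library, and it was not measured with equal numbers of peaks. Within 10 kb, 58.7%, 58.9% and 66.0% of embryonic leg peaks had a neighbour. The same held for 59.1%, 37.8% and 37.1% of adult leg peaks.

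Clustered peaks were defined as those with another peak within 5 kb. They made up 35.2%, 36.3% and 42.4% of embryonic leg peaks and 36.0%, 19.8% and 19.4% of adult leg peaks. Adult leg 1 again lay between the embryonic libraries. The difference of 12.9 percentage points had an exact p of 0.2 (n = 3 each). Isolated peaks, with none within 50 kb on scaffolds of at least 1 Mb, made up 5.91%, 7.09% and 3.11% in embryonic and 6.54%, 15.7% and 16.1% in adult legs. Their difference of -7.39 points also had an exact p of 0.2 (n = 3 each). Without naked DNA overlaps, clustered peaks made up 33.8%, 35.1% and 40.7% against 34.4%, 16.3% and 16.8%. Isolated peaks then made up 7.79%, 8.60% and 4.37% against 7.96%, 21.1% and 20.6%. Adult leg 1 again lay among the embryonic libraries for both shares, and adult legs 2 and 3 apart from them.

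Embryonic leg peaks more often lay in long runs of closely spaced peaks, and the leg types did not overlap at the 5 kb limit. A run was at least 5 peaks in which each gap was at most 5 kb. Such runs held 2.34%, 2.76% and 4.26% of embryonic leg peaks and 2.25%, 0.608% and 0.352% of adult leg peaks. No adult library reached the lowest embryonic value, although adult leg 1 came close to it. The means were 3.12% ± 1.01 and 1.07% ± 1.03 (SD, n = 3 each), with exact p = 0.1, the lowest attainable. There were 354, 363 and 864 runs in embryonic legs and 307, 56 and 30 in adult legs, with a median span of 11.98 to 13.4 kb. Equal numbers of peaks gave 1.42%, 1.35% and 1.60% against 1.12%, 0.623% and 0.352%, again without overlap. With gaps of up to 10 kb the leg types overlapped, at 20.4%, 21.1% and 27.3% against 20.4%, 4.82% and 4.04%, and they also overlapped among the strongest 10000 peaks, where 0.15%, 0.15% and 0.1% lay in runs against 0.05%, 0.16% and 0.06%.

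The longest run of each embryonic library but the first lay on scaffold phaw_50.282654b. It began at the same position in all 3. In embryonic leg 3 it held 17 peaks at phaw_50.282654b:30483431-30537228, a span of 53.8 kb. In embryonic leg 2 it held 13 peaks and in embryonic leg 1 it held 10. A second run on this scaffold, at phaw_50.282654b:36709251-36763888, held 16 peaks in embryonic leg 3 and 11 in embryonic leg 2 over a slightly shorter interval. The longest run of all 3 adult libraries lay at the start of scaffold phaw_50.000111, with 13, 9 and 13 peaks, and embryonic leg 1 had its longest run of 12 peaks there too. Of the peaks in the first 100 kb of that scaffold, 91.2% in adult and 94.1% in embryonic legs were also found in naked DNA. On phaw_50.282260a, adult legs 2 and 3 shared a run of 7 peaks, at 27237890-27252232 in adult leg 2.

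**Figure D1:**
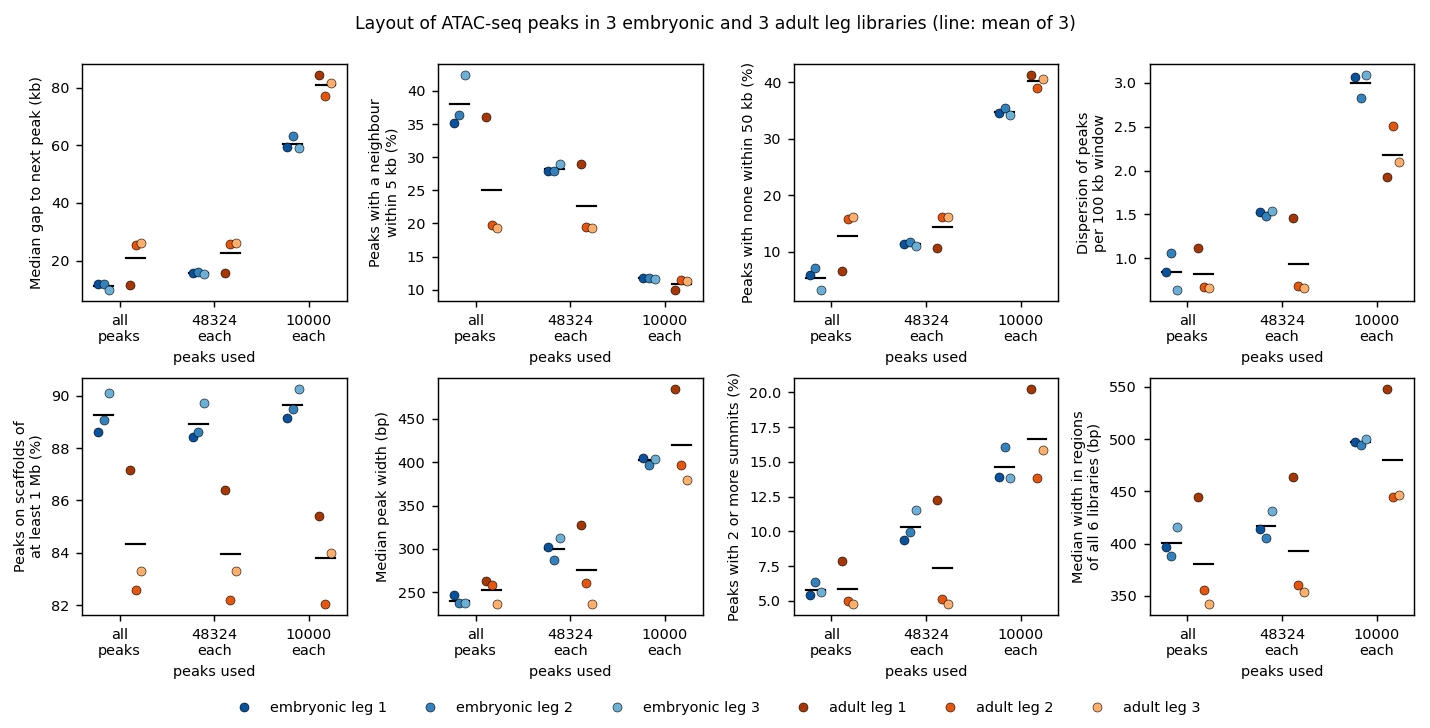
Layout measures for each of the 6 leg libraries (points) with the mean of 3 (line), from all peaks, from the strongest 48324 peaks of each library and from the strongest 10000. The vertical axes give the measure named and do not all start at 0. Adult leg 1 sits with the embryonic libraries for the median gap of all peaks (11.6 kb in this library) and with the other adult libraries for the strongest 10000 peaks (84.4 kb).

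Part of the spread between libraries moved with the number of peaks called, and the comparison was therefore repeated with equal numbers. With the strongest 48324 peaks of each library, the median gap was 15588, 16069 and 15511 bp in embryonic and 15624, 25912 and 26254 bp in adult legs. Adult leg 1 stayed among the embryonic libraries. The strongest 10000 peaks, an alternative chosen after seeing the data, gave 59.5, 63.1 and 58.9 kb in embryonic and 84.4, 76.9 and 81.7 kb in adult legs.

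At that depth of list the leg types no longer overlapped, and adult leg 1 had the widest spacing of the 6. The difference in the median gap gave an exact p = 0.1, the lowest attainable (n = 3 each). The isolated share of the strongest 10000 peaks was 34.5%, 35.5% and 34.1% in embryonic and 41.3%, 38.9% and 40.6% in adult legs, also without overlap. The shorter median gap in embryonic legs had the same sign under all 15 alternatives run, and the lower isolated share under all 17.

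The density of neighbours by distance gives the scale of the grouping. It was computed as the number of pairs of peaks a given distance apart, divided by the number that an even density on each scaffold would give. A value of 1 is thus an even spread, meaning peaks placed at random at an even density. Within every library, neighbour density at 20 to 50 kb was higher when the list was cut to the strongest 10000 peaks. Values from all peaks are therefore not on a common footing between libraries and are followed by those from equal numbers. From all peaks, neighbour density at 20 to 50 kb was 1.75, 1.89 and 1.56 in embryonic and 1.94, 1.59 and 1.58 in adult legs. At 200 to 500 kb it had come down to 1.16 to 1.24 in embryonic and 1.14 to 1.26 in adult legs. Over both ranges every library thus held more neighbours than an even spread, and from all peaks the leg types overlapped. At 20 to 50 kb, equal numbers of peaks gave 2.265, 2.203 and 2.247 in embryonic and 2.174, 1.608 and 1.58 in adult legs. The strongest 10000 peaks gave 3.311, 3.088 and 3.356 against 2.39, 2.905 and 2.468. In neither list did the leg types overlap there, but they did among peaks with a deposited q-value of at most 1e-05. At 200 to 500 kb they overlapped with equal numbers but not with the strongest 10000. No test was made.

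At 1 to 5 kb, neighbour density was 1.41, 1.64 and 1.29 in embryonic and 1.61, 1.28 and 1.24 in adult legs (n = 3 each, exact p = 0.5). At 500 to 1000 bp the order of the leg types was the opposite of that for clustered peaks. There it was 1.65, 1.78 and 1.46 in embryonic legs and 2.13, 2.63 and 2.63 in adult legs. Every adult library lay above every embryonic one. Over the next kilobases neighbour density fell fastest in adult legs 2 and 3, to 0.958 and 0.998 at 3 to 4 kb. It was 1.44 in adult leg 1 and 1.22 to 1.53 in embryonic legs. These finer distances were examined without a test.

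With equal numbers of peaks, neighbour density at 1 to 5 kb was 1.95, 1.92 and 2.00 in embryonic and 1.97, 1.29 and 1.23 in adult legs. Among peaks with a deposited q-value of at most 1e-05 it was 1.84, 1.91 and 1.79 in embryonic and 2.07, 2.48 and 2.12 in adult legs. The direction was then the reverse, with every adult library above every embryonic one (n = 3 each, exact p = 0.1). Neighbour density at 1 to 5 kb therefore has no direction between leg types that holds for every choice of peaks. At 500 to 1000 bp every adult library stayed above every embryonic one in these lists. Equal numbers of peaks gave 1.63, 1.77 and 1.65 in embryonic and 2.27, 2.68 and 2.63 in adult legs there. The q-value limit gave 1.55, 1.77 and 1.60 against 2.34, 3.82 and 3.80. The strongest 10000 peaks gave 2.86, 3.29 and 2.93 against 4.22, 3.94 and 4.82.

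A sharp step at 5 kb appeared in all 6 libraries. From 4.75 to 5 kb, neighbour density was 1.301, 1.51 and 1.25 in embryonic and 1.49, 1.27 and 1.13 in adult legs. From 5 to 5.25 kb it was 2.08, 2.313 and 1.77 in embryonic and 2.28, 1.88 and 1.84 in adult legs. The pileup that was expected at a peak, recovered from the deposited folds and p-values, also changed there. In embryonic leg 1 its median was 2.57 times the background for peaks whose nearest neighbour was 4 to 5 kb away, and 1.86 times at 5 to 6 kb. In adult leg 2 these values were 2.81 and 1.95. The 5 kb limit for clustered peaks coincides with this step, and the part of the expected pileup in the spacing was not tested. The limits of 2 and 10 kb gave the same direction for the clustered share, with 17.6%, 18.0% and 21.6% against 19.2%, 11.4% and 11.2% at 2 kb.

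**Figure D2:**
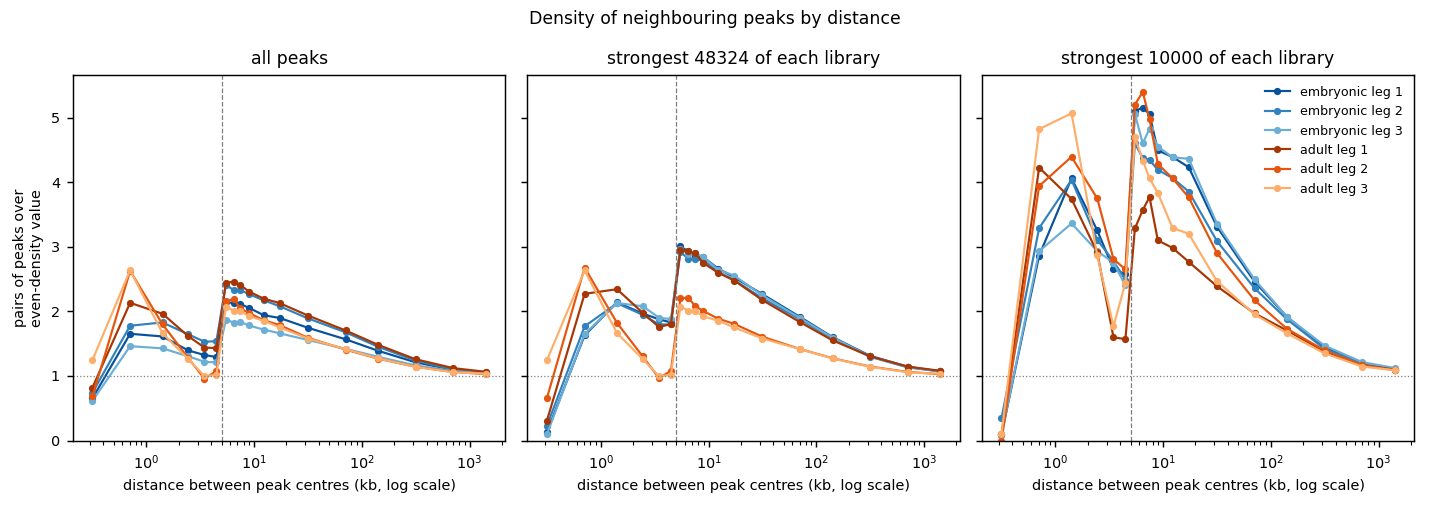
Neighbour density (vertical axis, pairs of peaks divided by the number at even density) against the distance between peak centres (horizontal axis, kb, log scale) for each leg library, from all peaks, equal numbers of peaks and the strongest 10000. The dotted line marks an even spread and the dashed line 5 kb, where every curve steps up, from 1.301 to 2.08 in embryonic leg 1 over 2 bins of 250 bp.

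Peaks per 100 kb window showed how unevenly the genome was used. On scaffolds of at least 1 Mb a window held 3.15, 2.80 and 4.38 peaks on average in embryonic and 2.70, 1.66 and 1.64 in adult legs. Windows with 10 or more peaks made up 6.30%, 5.72% and 11.2% of windows in embryonic legs. In adult legs they made up 5.63%, 0.392% and 0.351%. Adult leg 1 thus lay close to embryonic legs 1 and 2 and well below embryonic leg 3, and adult legs 2 and 3 had few such windows.

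Windows without any peak made up 20.6%, 25.9% and 11.4% in embryonic and 31.2%, 32.0% and 32.3% in adult legs. The groups did not overlap, and the difference of -12.5 points gave an exact p = 0.1, the lowest attainable (n = 3 each). With equal numbers of peaks the direction was the reverse, at 43.1%, 42.2% and 43.0% against 44.9%, 33.0% and 32.3%, and the groups overlapped.

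The dispersion of the counts, their variance minus the mean over the squared mean, is expected to be 0 for peaks placed at random at an even density. It was 0.845, 1.06 and 0.633 in embryonic and 1.12, 0.668 and 0.659 in adult legs (n = 3 each, exact p = 1). With equal numbers of peaks it was 1.53, 1.48 and 1.54 in embryonic and 1.46, 0.689 and 0.659 in adult legs. With the strongest 10000 peaks it was 3.07, 2.82 and 3.09 in embryonic and 1.93, 2.51 and 2.10 in adult legs. In both equal lists every embryonic library was more uneven than every adult library (exact p = 0.1 each, n = 3 each). The densest 1% of windows held 14.7%, 14.2% and 14.9% of the strongest 10000 peaks in embryonic and 12.3%, 14.1% and 12.8% in adult legs.

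The 5 windows with the most embryonic leg peaks held 14 to 18 peaks in adult leg 1 as well. The window phaw_50.283868b:300001-400000 held 26, 21 and 28 peaks in embryonic legs and 18, 10 and 11 in adult legs. In phaw_50.283815c:31700001-31800000 there were 21, 26 and 27 peaks against 15, 8 and 8. The 3 other windows with the most embryonic leg peaks lay on phaw_50.000135f, phaw_50.283869b and phaw_50.000214e and held 20 or more peaks in every embryonic library. As a share of the library's peaks, none of these 5 passed an adjusted p of 0.05 in limma over 8358 windows.

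Among the 5 windows with the most adult leg peaks, phaw_50.282654b:30900001-31000000 held 15, 17 and 17 peaks in embryonic and 20, 15 and 15 in adult legs. It contained 11 regions that were called in all 6 libraries, and 2.00% of its adult leg peaks overlapped naked DNA. The window phaw_50.283867c:19400001-19500000 held 22, 21 and 24 against 26, 17 and 11 peaks, none of them overlapping naked DNA. These 2 windows were thus crowded in both leg types.

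Which windows held a different share of a library's peaks was tested with limma on log2 of peaks plus 0.5 per 10000 peaks of the library. Of 8358 windows with at least 3 peaks on average, 65 were higher in embryonic legs, which is 0.778%, and 47 were higher in adult legs, which is 0.562% (Benjamini-Hochberg adjusted p at most 0.05). In all 65 and all 47 the shares of the leg types did not overlap. The windows were selected on these same shares, so this is not separate evidence. How many of all 8358 windows had no overlap is not given here, so these counts have no background to be read against. The 65 lay on 46 scaffolds and the 47 on 26. The 65 windows together held 760, 703 and 929 peaks in embryonic and 214, 102 and 90 in adult legs. The 47 held 157, 146 and 222 against 429, 298 and 309.

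These counts depended on single libraries and on scaling. Without embryonic leg 1, 2 or 3, only 0, 1 and 1 windows were higher in embryonic legs and 2, 3 and 3 in adult legs. Without adult leg 1 there were 745 and 282, without adult leg 2 there were 138 and 59, and without adult leg 3 there were 25 and 3. Without scaling to the library's number of peaks, 41 windows were higher in embryonic and 1 in adult legs, with the median of all windows at a log2 difference of 0.72. Equal numbers of peaks gave 249 and 42, with the median at 0.29.

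**Figure D3:**
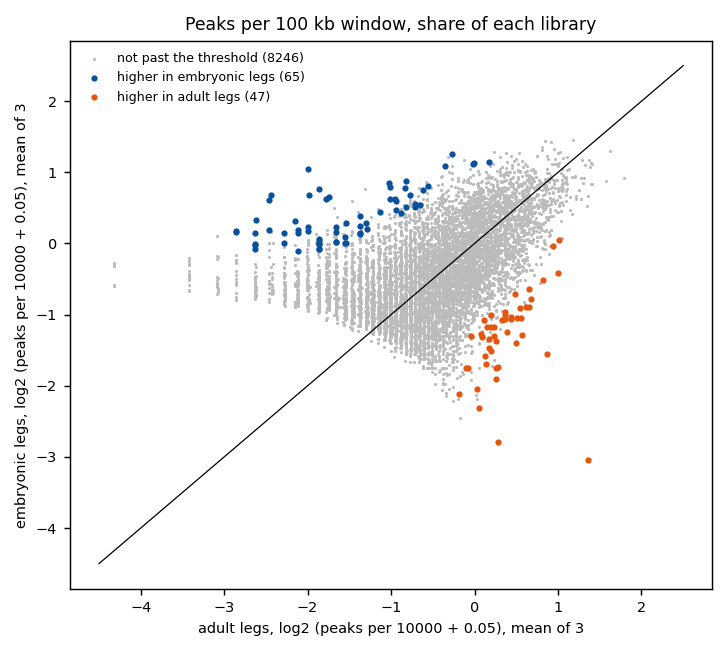
Peaks per 100 kb window as a share of each library, mean of 3 embryonic (vertical axis) against mean of 3 adult libraries (horizontal axis), as log2 of peaks per 10000 plus 0.05, for 8358 windows. Blue marks the 65 windows higher in embryonic legs and orange the 47 higher in adult legs, and the line marks equal shares.

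The window with the largest difference was higher in adult legs. It was phaw_50.283850a:17900001-18000000, with 0, 1 and 1 peaks in embryonic and 20, 14 and 10 in adult legs. All adult libraries had at least 10 peaks here, and no embryonic library had more than 1. The log2 difference was -4.53 (SE 0.435, limma adjusted p = 0.000875), and the adjusted p was at most 0.0484 over 15 alternatives. It held 7 regions that were called in all 3 adult libraries and in no embryonic one, spread from 17931178 to 17981765. The strongest by deposited fold was phaw_50.283850a:17953997-17954453, with folds of 12.1, 17.1 and 12.6 in adult legs 1 to 3, and naked DNA had a peak there too. In the whole window, 20.5% of adult leg peaks overlapped naked DNA.

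The adult excess was not limited to this window. The window before it held 1, 1 and 0 peaks in embryonic and 6, 4 and 3 in adult legs, and the window after it 0, 1 and 1 against 3, 5 and 3. The next one, at 18100001-18200000, also passed the threshold, with 2, 2 and 2 peaks against 6, 9 and 4. The leg types thus did not overlap over 4 windows in a row. Over the 20 neighbouring windows of phaw_50.283850a, out to 1 Mb on each side, the median was 3, 3 and 4.5 peaks in embryonic legs and 5, 3 and 3 in adult legs. In adult legs the named window stood above all 20 neighbours within each library. In embryonic legs its counts of 0, 1 and 1 were like those of the windows next to it.

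On phaw_50.283829a, the window 24900001-25000000 held 2, 3 and 3 peaks in embryonic and 14, 8 and 9 in adult legs. Its log2 difference was -2.47 (SE 0.285, limma adjusted p = 0.00246), called under 14 of 15 alternatives. It contained 5 regions called in all adult and no embryonic library, and no peak of naked DNA. The region phaw_50.283829a:24990164-24990915, 752 bp wide, had deposited folds of 12.96, 11.5 and 8.80 in adult legs. Around it, over 20 windows, the median was 1, 2 and 4 peaks in embryonic and 3, 2 and 1.5 in adult legs.

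Scaffold phaw_50.000135f had 2 of the 6 largest differences toward adult legs. At 30800001-30900000 it held 1, 0 and 2 peaks in embryonic and 8, 6 and 6 in adult legs (log2 difference -3.24, SE 0.553, limma adjusted p = 0.0304). At 30500001-30600000 it held 1, 2 and 1 against 7, 4 and 6. These windows were called under 7 and 6 of 12 alternatives. The other 2 named windows were phaw_50.283811:2400001-2500000, with 1, 1 and 6 against 9, 5 and 6 peaks, and phaw_50.283826:65500001-65600000, with 1, 3 and 3 against 8, 5 and 7. They were called under 11 and 10 of 15 alternatives. In phaw_50.283811 the peak counts of the leg types overlap, at 5 to 6, and only the shares are apart.

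Some windows past the threshold lay next to another of the same direction, 5 of the 65 higher in embryonic legs and 6 of the 47 higher in adult legs. The adult ones were pairs on phaw_50.283826, phaw_50.020523d and phaw_50.283743b. On phaw_50.282695a, 3 windows in a row from 25200001 to 25500000 passed the threshold. The last of them, 25400001-25500000, held 17, 18 and 21 peaks in embryonic and 3, 0 and 1 in adult legs. Every embryonic library had at least 17 peaks, and adult leg 2 had none. The log2 difference was 3.08 (SE 0.455, limma adjusted p = 0.0188), called under 12 of 15 alternatives. The first window of the stretch held 16, 12 and 19 peaks against 2, 1 and 1.

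In the window of phaw_50.282695a at 25400001-25500000, 13 regions were called in all 3 embryonic libraries and in no adult one, and none of its embryonic leg peaks overlapped naked DNA. The widest was phaw_50.282695a:25449586-25450846, 1261 bp, with deposited folds of 11.2, 11.1 and 13.5. The strongest, phaw_50.282695a:25490115-25490860, had folds of 17.1, 12.4 and 16.3. Over the 20 surrounding windows the median was 9.5, 10.5 and 12 peaks in embryonic and 3, 2 and 2.5 in adult legs. Some of these neighbours were crowded in adult legs too, up to 17, 15 and 11 peaks.

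On phaw_50.000135c, the window 12900001-13000000 held 13, 13 and 18 peaks in embryonic and 0, 2 and 0 in adult legs (log2 difference 3.42, SE 0.608, limma adjusted p = 0.0304). The window before it, from 12.8 Mb, was also higher in embryonic legs, with 14, 12 and 17 peaks there. On phaw_50.282396b, the window 4900001-5000000 held 13, 13 and 15 against 3, 0 and 0 peaks (log2 difference 3.17, SE 0.531, limma adjusted p = 0.0304). It had 9 regions called in all embryonic and no adult library. The region phaw_50.282396b:4995147-4995486 had deposited folds of 11.8, 12.4 and 13.3 in embryonic legs 1 to 3. Both windows, like that of phaw_50.282695a, lost the call when any 1 embryonic library was left out (limma adjusted p of 0.127 to 0.198). They were called under 10 and 11 of 15 alternatives.

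The other 3 named windows had fewer peaks or a wider spread. The window phaw_50.282976b:16400001-16500000 held 9, 8 and 14 against 2, 0 and 0 peaks. In phaw_50.283867b:2600001-2700000 there were 13, 13 and 18 against 0, 2 and 1. The window phaw_50.283828a:21900001-22000000 held 11, 4 and 17 against 2, 0 and 0, with an adjusted p of 0.0493 in limma that lay just inside the threshold. They were called under 10 of 15, 11 of 15 and 7 of 13 alternatives.

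**Figure D4:**
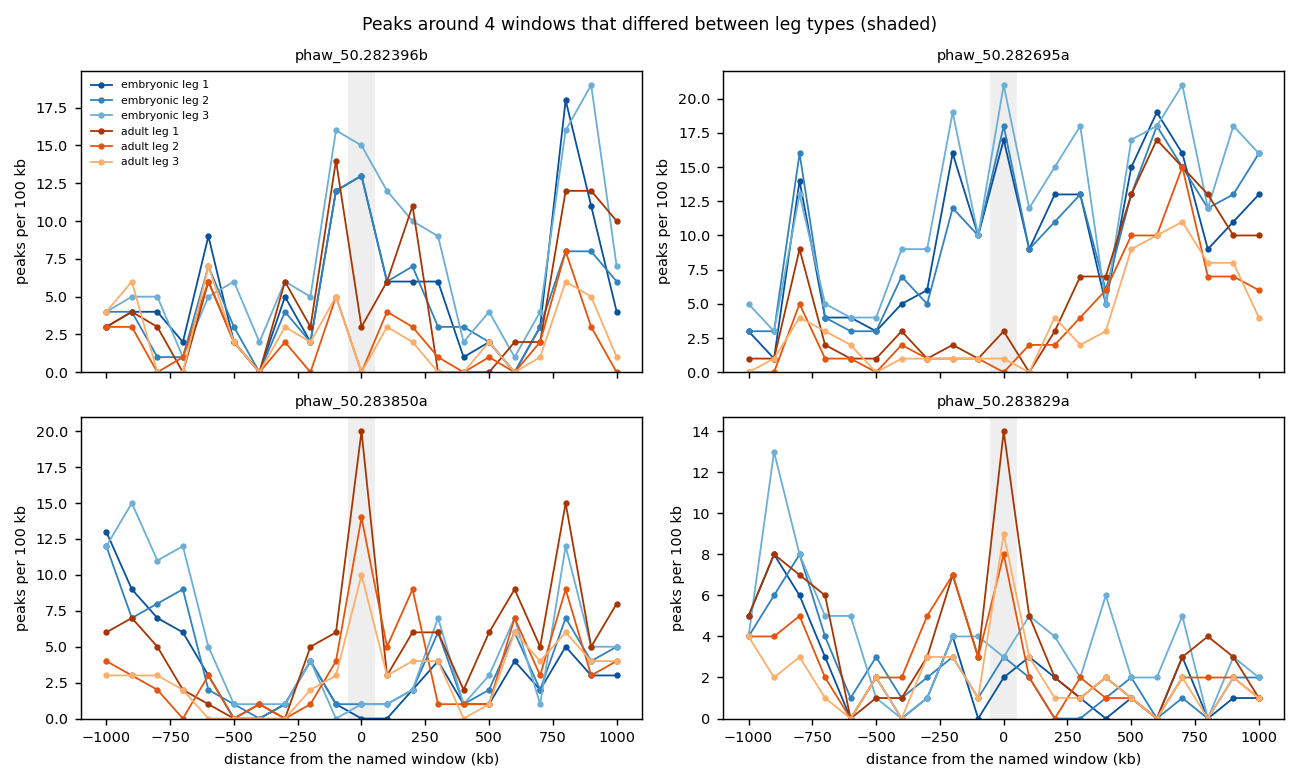
Peaks per 100 kb window (vertical axis, from 0) against distance from the named window (horizontal axis, kb, shaded at the centre) for 4 windows in each of the 6 leg libraries. On phaw_50.283850a the adult libraries reach 20, 14 and 10 peaks in the shaded window against 0, 1 and 1 in embryonic legs, and on phaw_50.282695a the embryonic libraries lie above the adult ones over several windows in a row.

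The 65 windows higher in embryonic legs held 356 regions called in all embryonic and no adult library, 4 of the opposite kind and 32 called in all 6. In 38 of the 65 there was no region of all 6 libraries. The 47 windows higher in adult legs held 83 regions called in all adult and no embryonic library, 5 of the opposite kind and 59 of all 6. Regions were the merged peaks of the 6 leg libraries. These counts come from the same peaks as the test and describe the windows only.

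Across the genome, 12384 of 202538 merged regions were called in all 3 embryonic and no adult library and 1696 were of the opposite kind. Another 17196 were called in all 6. Adult lists held 48324 to 76268 peaks and embryonic lists 77357 to 119487, so these counts are not on a common footing between leg types. Embryonic-only regions lay a median of 27.1 kb from the next region of their kind and 39.4 kb from a region of all 6. Adult-only regions lay 294 kb from the next of their kind and 30.1 kb from a region of all 6. The classes differ in number, which alone sets part of these distances. Neighbour density at 5 to 20 kb was 3.10 for embryonic-only regions, 6.04 for adult-only regions and 3.03 for regions of all 6. Neighbour density was higher in shorter lists of peaks, and the classes rest on lists of unequal length, so these values are not compared between classes.

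No whole scaffold of at least 1 Mb passed the test for its share of peaks. Of 158 scaffolds, 0 were higher in embryonic and 0 in adult legs at an adjusted p of 0.05 in limma, which is 0% in each direction. At an unadjusted p below 0.05, 34 were higher in embryonic and 6 in adult legs. The median log2 difference over the 158 scaffolds was 0.08. Shares were taken of all peaks of a library, and shorter scaffolds held more of the adult leg peaks. Scaffold differences apart from that were not tested. Without adult leg 1 the adjusted counts were 57 and 27, and without scaling to the number of peaks they were 66 and 0.

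The scaffold with the largest fold toward embryonic legs was phaw_50.283865a, with 154, 134 and 201 peaks in embryonic and 82, 61 and 53 in adult legs. As a share these were 17.6, 17.3 and 16.8 against 10.8, 12.3 and 10.97 per 10000 peaks (log2 difference 0.60, SE 0.109, limma adjusted p = 0.0555). The groups did not overlap, but the call missed the threshold. Toward adult legs, phaw_50.283842 had 23.6, 20.2 and 21.9 peaks per 10000 in embryonic and 26.5, 35.4 and 33.3 in adult legs (log2 difference -0.53, SE 0.128, limma adjusted p = 0.0566).

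Peak density per Mb on these scaffolds ranged widely within every library. The median was 29.9, 26.4 and 42.0 peaks per Mb in embryonic and 25.6, 16.6 and 16.3 in adult legs. The densest scaffold on average, phaw_50.283862b, reached 57.0, 55.6 and 77.5 peaks per Mb in embryonic and 54.8, 24.9 and 21.9 in adult legs. The ratio of the scaffold at the 90th percentile to that at the 10th was 2.60, 2.89 and 2.41 in embryonic and 3.13, 2.01 and 2.12 in adult legs. Scaffolds were thus most unequal in adult leg 1 and least unequal in adult legs 2 and 3.

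The leg types were also separated by the share of their peaks on short scaffolds. Scaffolds of at least 1 Mb held 88.6%, 89.1% and 90.1% of embryonic leg peaks and 87.2%, 82.6% and 83.3% of adult leg peaks. Every embryonic library lay above every adult library. The means were 89.3% ± 0.762 and 84.3% ± 2.46 (SD, n = 3 each), a difference of 4.93 points with exact p = 0.1, the lowest attainable. The direction was the same under all 16 alternatives, from 2.12 to 6.33 points, and the strongest 10000 peaks gave 89.2%, 89.5% and 90.3% against 85.4%, 82.0% and 84.0%.

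Scaffolds under 10 kb, 26271 in number, held 8.22%, 7.93% and 7.02% of embryonic and 9.63%, 12.7% and 12.3% of adult leg peaks. Overlap with naked DNA was high on these scaffolds. It was 46.4%, 45.8% and 41.1% of such peaks in embryonic and 41.6%, 61.6% and 50.6% in adult legs, against 15.4%, 14.8% and 13.8% and 16.9%, 24.3% and 21.2% on scaffolds of at least 10 Mb. After removal of naked DNA overlaps, scaffolds of at least 1 Mb held 92.6%, 93.0% and 93.2% of embryonic and 91.0%, 90.5% and 89.3% of adult leg peaks. The difference was then 2.69 points, still without overlap. The part of copy number or mappability of short scaffolds in this difference was not tested.

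**Figure D5:**
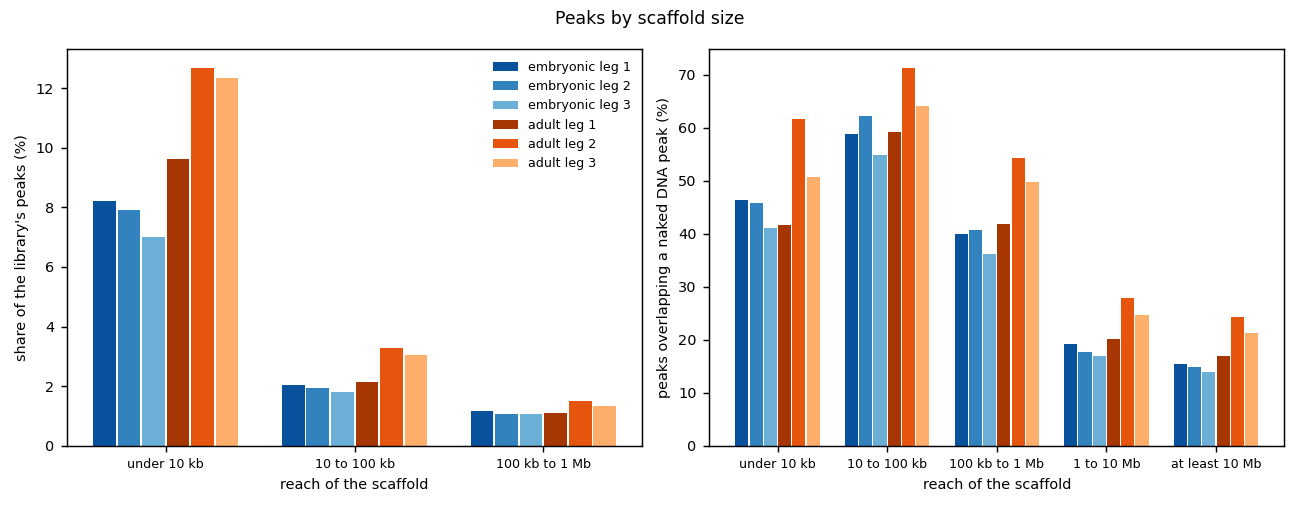
Left, share of each library's peaks on scaffolds of 3 short size classes (vertical axis, percent, from 0), and right, share of the peaks in each of 5 size classes that overlap a naked DNA peak (percent, from 0), with 1 bar per library. Scaffolds under 10 kb hold 7.02% to 8.22% of embryonic and 9.63% to 12.7% of adult leg peaks.

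Peak width was similar in the leg types. The median was 247, 237 and 237 bp in embryonic and 263, 258 and 236 bp in adult legs (n = 3 each, exact p = 0.4). Peaks over 500 bp made up 9.55%, 9.31% and 8.38% against 13.3%, 11.4% and 9.11%, and adult leg 3 lay inside the embryonic range (n = 3 each, exact p = 0.3). Among peaks with a q-value of at most 1e-05, the median width was 298, 286 and 290 bp in embryonic and 341, 336 and 319 bp in adult legs, without overlap (exact p = 0.1). With equal numbers of peaks the mean difference turned to 25.3 bp wider in embryonic legs, and the groups overlapped.

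Within the same 17196 regions of all 6 libraries, widths were added up over the peaks that a library had in a region. The median of this summed width was 397, 388 and 416 bp in embryonic and 445, 356 and 342 bp in adult legs (n = 3 each, exact p = 0.6). Here adult leg 1 had the largest summed width and adult legs 2 and 3 the smallest, with the embryonic legs between them.

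Most peaks had 1 summit. Peaks with several summits made up 5.39%, 6.38% and 5.64% in embryonic and 7.90%, 4.99% and 4.75% in adult legs, and adult libraries lay on both sides of the embryonic ones. The exact p was 1 (n = 3 each). Neighbouring summits within a peak lay a median of 209, 191 and 196 bp apart in embryonic and 198, 249 and 212 bp in adult legs. The largest number of summits in 1 peak was 9, 11 and 14 in embryonic and 9, 8 and 6 in adult legs.

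The broadest regions were shared by both leg types and mostly seen in naked DNA. For each library, widths and summits were added up over its peaks in a region. The region phaw_50.000501:206626-209635 had summed widths of 3009, 2998 and 2992 bp in embryonic and 2303, 2763 and 2027 bp in adult legs. It had 9, 11 and 9 against 8, 8 and 6 summits, and it overlapped naked DNA. All other regions among the 5 widest of each leg type overlapped naked DNA as well. Among the 5 with the most summits, the exception was phaw_50.283815c:19937550-19939843. Its summed width was 2103, 1810 and 2094 bp in embryonic and 2114, 1798 and 1224 bp in adult legs, with 7, 8 and 7 against 7, 6 and 5 summits.

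Isolated peaks differed from clustered peaks in the same way in both leg types for width, fold and sharing. In every library isolated peaks were narrower, at 227, 216 and 214 bp against 239, 228 and 230 bp for clustered peaks in embryonic legs. In adult legs they were 237, 233 and 209 bp against 255, 262 and 243 bp. Peaks of 1 library are not replicates, and no test was made. The median deposited fold of isolated peaks was 4.80, 5.24 and 4.59 in embryonic and 4.72, 4.14 and 3.99 in adult legs, below that of the clustered peaks of the same library in all 6.

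Isolated embryonic leg peaks recurred less often in the other 2 embryonic libraries, with 36.2%, 44.9% and 21.2% called in both against 63.2%, 68.0% and 45.5% of clustered peaks. In adult legs these shares were 23.1%, 29.1% and 28.3% against 27.8%, 52.9% and 56.8%. Overlap with naked DNA was higher for isolated than for clustered peaks in all 3 embryonic libraries, at 21.4%, 23.8% and 20.0% against 14.5%, 13.5% and 12.9%. In adult legs the isolated share was 27.9%, 26.7% and 24.6% against 15.5%, 30.3% and 24.4%, so that in adult leg 2 the clustered peaks overlapped naked DNA more often.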

How the data were processed

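Peak lists of 6 leg libraries and 1 naked DNA library were used; lists of whole embryos served only for scaffold lengths. Per the submitters' processing notes, the tools were MACS2 2.2.7.1, Picard, Bowtie2 2.5.4, bedtools 2.31.1 and SAMtools 1.21, with no role given. Not given in the sources used here are the genome build, the calling threshold and any read shift. Each library has its own deposited list; that of adult leg 2 names its peaks without a replicate number, and whether it was called on that library alone is not stated. The authors' fold enrichment per peak is a ratio, and p-value and q-value were deposited as −log10. These values of single peaks served only for describing, ranking and filtering inside 1 list. Coordinates are printed 1-based. Depth is not in the lists; the background pileup recovered from fold and p-value stands in for it.

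Measures per library were compared by exact two-sided permutation of 20 splits. Windows and scaffolds were tested with limma 3.58.1 (R 4.3.3) with a trend, on log2 of peaks plus 0.5 per 10000 peaks, where windows held at least 3 peaks on average. Other steps used pandas 2.3.3, numpy 2.4.6 and scipy 1.17.1 under Python 3.11.15. Scripts were tested on simulated data. Named windows are the 6 with the largest fold in each direction among those past the threshold; named regions, runs, crowded windows and scaffolds rank highest by width, summits, number of peaks, density or fold. The measures and rules were chosen with earlier results of these data known.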

Additional observations from a re-analysis of the deposited data

How the results depend on the processing

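The median gap, the clustered, isolated and run shares and the share on scaffolds of at least 1 Mb kept their direction under every alternative run for them. Differences below are embryonic minus adult. A q-value of at most 1e-05 reversed neighbour density (-0.374) and dispersion (-0.160). Equal numbers of peaks reversed the median width (25.3 bp), peaks over 500 bp (1.76 points), summits per peak (0.0335), peaks with several summits (2.93 points), empty windows (6.01 points), the densest 1% (1.303 points) and scaffolds with a peak (-1850). The strongest 20000 and 10000 peaks, chosen after seeing the data, reversed empty windows (1.209 and 0.502 points), the densest 1% (1.18 and 1.49 points) and scaffolds with a peak (-950 and -517.7). Removing naked DNA overlaps reversed summits per peak (3.5e-05) and several summits (0.162 points), and joining peaks under 150 bp apart reversed the latter (0.0524 points). Width divided by the narrowest peak gave 0.104, and neighbours 5 to 20 kb apart gave -0.0352. With adult leg 1 as the only adult library, chosen after seeing the data, neighbour density (-0.169) and dispersion (-0.274) were reversed. Summed width (-10.3 bp) and summits (-0.0123) in shared regions were reversed too. These regions were not those of all 6 libraries, where the embryonic mean of the summed width was 400 bp against 445 bp in adult leg 1. Leaving out 1 library gave -0.0269 to 0.188 for neighbour density, -0.0762 to 0.181 for dispersion, -0.00985 to 0.00956 for summits per peak and -0.639 to 0.936 points for several summits. The cause was not tested.

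Windows higher in embryonic and adult legs numbered 65 and 47. They numbered 221 and 224 with a pseudocount of 1, 41 and 1 without scaling, 274 and 324 with q-values of at most 1e-05, 249 and 42 with equal numbers of peaks, 93 and 134 without naked DNA overlaps, 350 and 243 without a filter, 502 and 255 with library weights and 624 and 292 with adult leg 1 as the only adult library. Leaving out 1 library gave 0 to 745 and 2 to 282. Scaffolds, 0 and 0, numbered 66 and 0 without scaling, 50 and 13 with the stricter q-value, 34 and 18 with equal numbers, 20 and 7 with adult leg 1 alone, and 0 to 57 and 0 to 27 when 1 library was left out. Of the 112 windows, 31 were also called without scaling, 66 with the stricter q-value and 49 with equal numbers of peaks. No named window was reversed. With the replicate number as a block 56 and 32 windows were called, but same-numbered libraries did not deviate together (r of -0.0617, -0.0395 and -0.0106 over 8358 windows). These correlations cover peak counts only and cannot show whether same-numbered libraries were prepared together. Where an arm had 1 library, limma assumes that it varies like the others. Depth is known only as background pileup, and adult leg 3, at 0.252, limits what its absent peaks can show.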
